A study of Mus musculus with 2 samples.

Results

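IL-17-producing gamma-delta-like (IL-17 γδ-like) T cells of mouse tumours were 160 of the 10533 cell barcodes in a pair of droplet-based single-cell RNA libraries, with 55 from WT and 105 from CD94-KO mice. The cells came from a sort of live CD45+ cells (7AAD was used for viability) out of subcutaneous tumours of C57BL/6J mice, 6 to 8 weeks old. The labels name no engineered allele for WT. CD94-KO mice, on the same background, lack CD94, the lectin-like receptor encoded by Klrd1. The design text gives 5 tumour-bearing mice for the single-cell data without saying whether that is per library or in all. No barcode is tied to a mouse, and the tumour line and the deleted part of Klrd1 were not given in the sources used here. With 1 library per genotype there was no test between genotypes: every difference below describes these libraries, and each bracket is a 95% interval that covers counting error only.

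IL-17-producing γδ T cells are innate-like lymphocytes that leave the thymus already programmed by factors such as MAF, SOX13 and PLZF. They settle in skin, fat, gut lining and tumours, and release IL-17A and IL-17F soon after IL-1β and IL-23 reach them. In tumours they are best known for drawing in neutrophils and other myeloid cells through IL-17A.

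Cells were chosen on measured values. A member had at least 1000 unique molecular identifiers (UMIs, counted RNA molecules), under 10% mitochondrial UMIs and at least 1 UMI of Cd3d, Cd3e or Cd3g, which encode CD3 chains of the T cell receptor complex. It also had at least 2 UMIs summed over Cd163l1, 5830411N06Rik, Il17a and Il17f, none of the Treg factor Foxp3, and at most 1 UMI of the macrophage genes C1qa, C1qb, C1qc and Csf1r. These 4 gate genes therefore describe the members and support nothing about them. Just outside the minimum lay 9 WT and 19 CD94-KO cells with a single gate UMI. Just inside it, 0 WT and 9 CD94-KO cells had 2 gate UMIs and 10 and 11 cells had 3, while 33 of 55 WT and 76 of 105 CD94-KO members had 5 or more.

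The comparison cells were other gated T cells of the same library with all 4 gate genes at 0: 64 CD8, 58 CD4 conventional and 58 regulatory T cells in WT, and 46, 47 and 27 in CD94-KO. They met the same depth, mitochondrial, CD3 and macrophage limits and had no UMI of the NK genes Ncr1 and Klrb1c. CD8 T cells had a Cd8a or Cd8b1 UMI and no Cd4 or Foxp3 UMI. CD4 conventional T cells had a Cd4 UMI and no Cd8a, Cd8b1 or Foxp3 UMI. Regulatory T cells had a Foxp3 UMI and no Cd8a or Cd8b1 UMI. Members held 326174 UMIs in WT and 602866 in CD94-KO, at medians of 5939 and 5458 UMIs per cell, against medians of 7097 and 6223.5 in the other gated T cells. Of all barcodes, 3211 WT and 4431 CD94-KO passed the depth and mitochondrial limits, and 8 barcode sequences occurred in both libraries, 0 of them among members. Levels are CPM, the UMIs of a gene per 1000000 UMIs summed over a group of cells.

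The gate genes were carried unevenly by the cells chosen on them. Cd163l1 encodes the scavenger receptor SCART1 of γδ T cells and lies on the plus strand of chromosome 7 at 140218267 to 140231145 (GRCm38). It was found in 90.9% of WT and 94.3% of CD94-KO members, at 794 and 887 CPM. Its neighbour 5830411N06Rik, which encodes the related receptor SCART2 (chromosome 7, 140247284 to 140300736), was found in 14.5% [6.495 to 26.7] and 3.81% [1.05 to 9.47]. Most members of both libraries thus carried the first receptor gene and few the second.

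The cytokine genes Il17a (chromosome 1, 20730905 to 20734496, plus strand) and Il17f (chromosome 1, 20777146 to 20790617, minus strand) are neighbours on chromosome 1. Il17a had a UMI in 54.5% [40.6 to 68.03] of WT and 60% [49.98 to 69.4] of CD94-KO members, and Il17f in 10.9% and 10.5%. Their RefSeq promoters (GRCm38.p6, 250 bases before to 50 after the start) are shown because these genes define the cells, and because members also carried much Rora, whose product binds the half-site AGGTCA. All 4 gate genes had an entry in the RefSeq table. Capitals mark that half-site on either strand. The windows are chr1:20730655-20730954 (plus strand) for Il17a and chr1:20784221-20784520 (minus strand) for Il17f. The Il17f window lies inside the gene span given above, which covers 4 annotated transcripts. It is set on the RefSeq start and not on the outer end of that span.
Il17a: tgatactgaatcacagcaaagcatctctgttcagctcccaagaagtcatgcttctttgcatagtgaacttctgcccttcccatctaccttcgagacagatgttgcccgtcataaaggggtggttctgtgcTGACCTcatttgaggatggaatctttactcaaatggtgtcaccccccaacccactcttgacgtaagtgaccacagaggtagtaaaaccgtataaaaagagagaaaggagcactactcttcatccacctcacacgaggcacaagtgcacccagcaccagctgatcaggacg
Il17f: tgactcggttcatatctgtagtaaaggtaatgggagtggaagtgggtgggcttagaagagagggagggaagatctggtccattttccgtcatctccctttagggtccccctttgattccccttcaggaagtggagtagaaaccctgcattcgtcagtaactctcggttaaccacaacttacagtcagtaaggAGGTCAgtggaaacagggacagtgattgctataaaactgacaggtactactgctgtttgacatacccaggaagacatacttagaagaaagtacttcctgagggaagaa
Each window held 1 match, beginning 120 bases before the start in Il17a (reverse strand, read as TGACCT) and 58 bases before it in Il17f (forward strand). The same letters occurred in 16.3% of 32851 mouse promoters of this length. They occurred once in each of the 3 windows listed for 5830411N06Rik and not in the Cd163l1 window, so a match is a description of the sequence.

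Il17f and 5830411N06Rik lay partly in the same cells. In WT, 25 of 30 Il17f UMIs came from 4 of the 8 members with a 5830411N06Rik UMI, which gave 565 CPM in those 8 cells and 17.7 CPM in the other 47. In CD94-KO, 8 of 20 Il17f UMIs came from 2 of the 4 such members, at 340 CPM against 20.7 CPM in the other 101. Cd163l1 went the other way, at 181 CPM with and 890 CPM without 5830411N06Rik in WT, and at 42.5 and 922 CPM in CD94-KO. Il17a had 384 and 465 CPM in WT, and 425 and 806 CPM in CD94-KO. The split rests on 12 cells and on genes that the rule used, so it is given without a test. A member without 5830411N06Rik had to enter through the other gate genes, so the Cd163l1 difference is partly set by the rule.

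Il17a transcripts were unevenly spread. The lowest member had 0 UMIs, the median 1 and the highest 23 in WT and 49 in CD94-KO, and 10 cells held 74.3% and 52.6% of the Il17a UMIs. The summed level was 454 CPM in WT and 791 CPM in CD94-KO, a ratio of 1.74 [1.45 to 2.11], at nearly the same share of cells with a UMI. With each cell thinned to 1000 UMIs the shares were 30.9% [19.1 to 44.8] and 35.2% [26.2 to 45.2]. Cd163l1 was less uneven, with a median of 4 UMIs and a highest value of 14 in WT and 5 and 13 in CD94-KO, and a ratio of 1.12 [0.962 to 1.30]. Il17f had a ratio of 0.361 [0.194 to 0.657], with the WT level set by the 4 cells above. In gated macrophages, which should lack these genes, a Cd163l1 UMI was found in 0.806% of WT and 0.805% of CD94-KO cells and an Il17a UMI in 0.538% and 0.268%, at median depths of 12016 and 11152 UMIs.

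**Figure D1:**
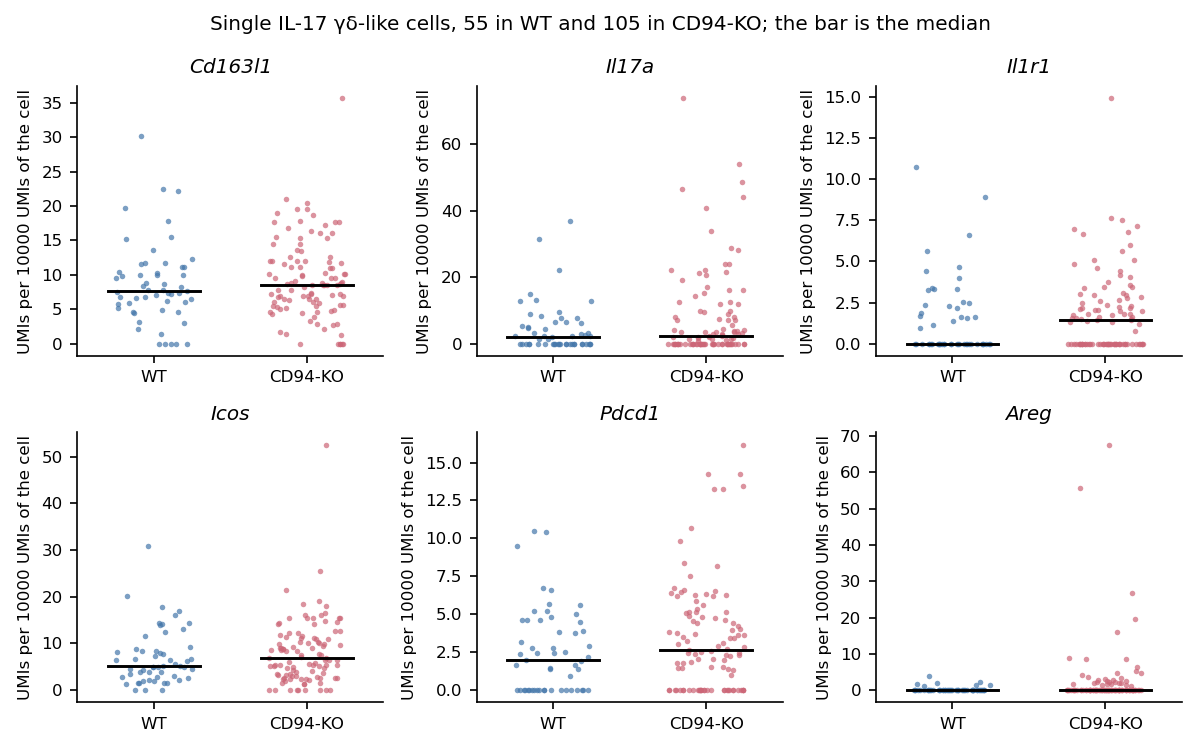
UMIs per 10000 UMIs of the cell for 6 genes, with each point 1 member (55 WT, 105 CD94-KO) and the bar the median over members. Cd163l1 is spread over nearly all cells of both libraries, while Areg is at 0 in most cells and reaches 67.6 in a CD94-KO cell against 3.83 in WT.

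Genes outside the rule matched the label. Blk, the B lymphoid kinase that IL-17 γδ cells use among Src-family kinases, had 230 CPM in WT and 260 CPM in CD94-KO members, in 60% and 71.4% of cells. In the other gated T cells it was at 0 UMIs in WT, which makes members at least 117-fold higher on a floor of 3 counts for that group of cells, and at 1 UMI in CD94-KO (ratio 248.5 [43.95 to 9876]). Il1r1, the IL-1 receptor, had 135 and 177.5 CPM against 1.31 and 2.10 CPM. Zbtb16, which encodes PLZF, had 123 and 144 CPM against 0 and 2.10 CPM. All 3 markers that the rule did not use were thus present in members of both libraries and at or near 0 in the other gated T cells of both.

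T cell receptor genes were not analysed here, so the use of a γδ receptor was not checked and the label rests on these markers. Zbtb16 is also on a list of 8 markers of MAIT and NKT cells, which are other innate-like T cells. That list summed to 429 and 345 CPM in members. It was 989 and 1216 CPM in CD8, 1227 and 1432 CPM in CD4 conventional and 799.5 and 749 CPM in regulatory T cells. The sum was thus higher in all 3 other T cell types, so it cannot tell MAIT or NKT cells from those types. Whether some members are MAIT or NKT cells was not tested. Coreceptor genes, which the rule for members did not use, were at or near 0 where a CD4 or CD8 T cell would have them. Cd4 and Cd8a had 0 UMIs in all 160 members, and Cd8b1 had 2 UMIs in WT and 1 in CD94-KO. Of 7 CD4 T cell markers, the summed level was 58.2 CPM in WT and 31.5 CPM in CD94-KO members against 2647 and 2305 CPM in CD4 conventional T cells, with Cd4 and Izumo1r at 0 in both. The other markers were Cd40lg, Cd28, Cd5, Ccr7 and Tnfrsf4. That list holds no gene of the type 17 programme, so its sum cannot address Th17 cells as such. Of 11 NK cell markers it was 184 and 105 CPM against 725 and 611 CPM in CD8, 94.96 and 159 CPM in CD4 conventional and 148 and 20.96 CPM in regulatory T cells, with the defining Ncr1 at 0. Members were thus below CD8 T cells in both libraries and above regulatory T cells in both. Of 10 type 3 innate lymphoid (ILC3) markers it was 598 and 614 CPM against 206 and 162.5 CPM in CD8 T cells and 1178 and 1418 CPM in CD4 conventional T cells. That list shares Il23r with the cells studied here, and its Ncr1, Cxcr5 and Cd4 were at 0. The gates of the comparison cells excluded Ncr1 and Klrb1c and set Cd4 in CD8 and CD4 conventional T cells. The CD4, MAIT and NKT, NK and ILC3 sums are therefore partly fixed by those gates. CD3 genes were used by the gates of members and comparison cells alike, and Cd3g is given as a description only, at 1419 and 1305 CPM against 1091 and 958 CPM.

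**Figure D2:**
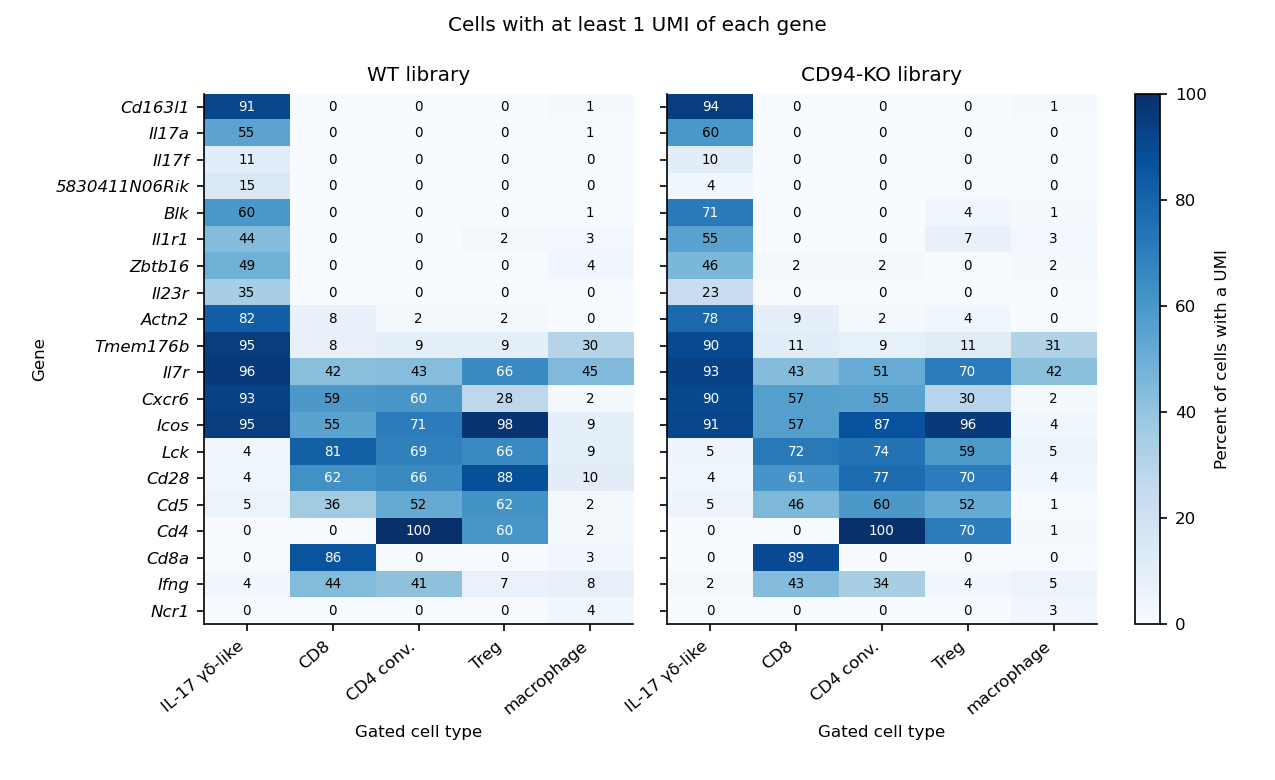
Percent of cells with at least 1 UMI (colour and number) for 20 genes in the 5 gated cell types of the WT (left) and CD94-KO (right) library. The top 4 genes were used by the gate of members, and Cd4, Cd8a and Ncr1 by gates of the other T cells. Blk, Il1r1 and Zbtb16 were used by no gate and are found in 43.6% to 71.4% of members.

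The transcription factors of the type 17 programme were present. Rora, which encodes a nuclear receptor of the type 17 programme, was found in nearly all members, with a UMI in 100% and 98.1% of members at 1490 and 1344 CPM against 375 and 485 CPM in the other gated T cells, ratios of 3.97 [3.51 to 4.49] and 2.77 [2.47 to 3.11]. Sox13 had 33.7 and 53.1 CPM against 0 and 2.10 CPM. Maf was not set apart from the pool, at 362 and 479 CPM against 360 and 386 CPM, since regulatory T cells had 916 and 1289 CPM and CD8 T cells 19.6 and 22.6 CPM. Of 12 factors on the list at the depth used for this comparison, Rora and Irf4 were at least 2-fold higher in both libraries and 0 lower, with medians of 0.05 in WT and 0.32 in CD94-KO on the log2 scale.

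Across all genes, a ratio of at least 2 in the same direction in both libraries described 134 of 3765 genes higher in members (3.56%) and 178 lower (4.73%). Genes needed at least 50 UMIs over members and comparison cells in each library, and genes used by a gate were left out. The median log2 ratio over these genes was -0.04 in WT and -0.02 in CD94-KO.

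**Figure D3:**
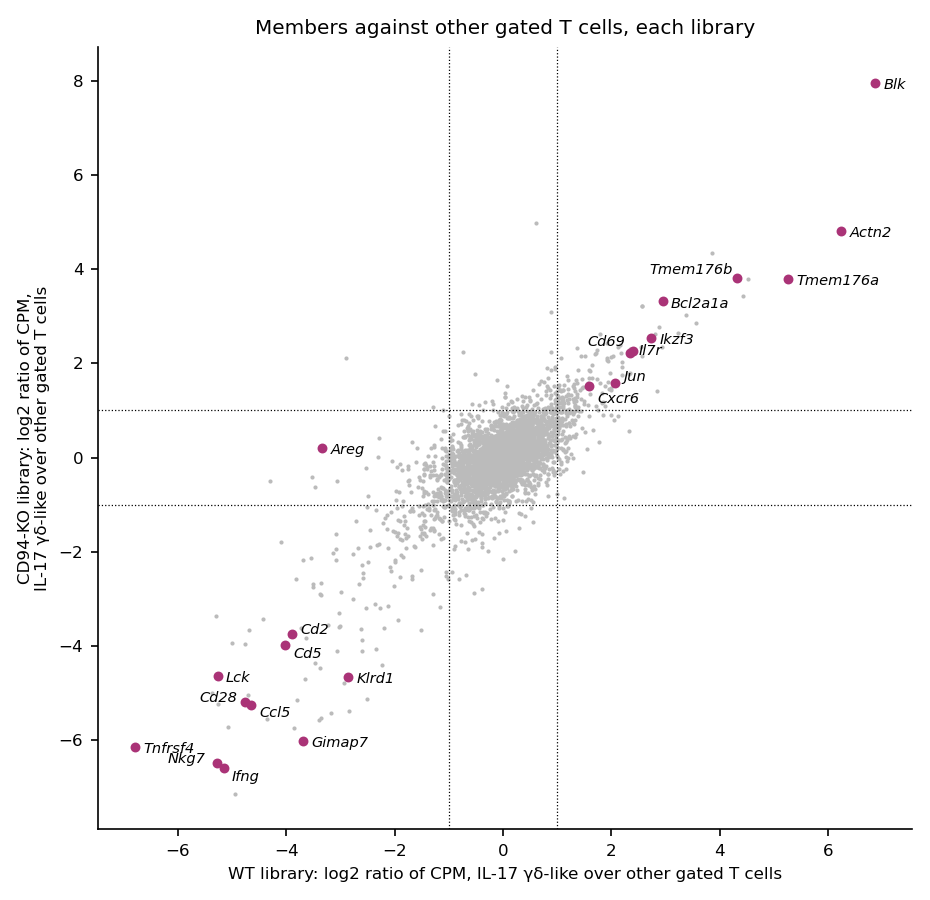
Log2 ratio of CPM between members and other gated T cells in the WT library (horizontal) and the CD94-KO library (vertical), with each point a gene and dotted lines at a 2-fold difference. Blk and Actn2 lie far to the upper right and Tnfrsf4, Nkg7 and Ifng to the lower left, while Areg lies far below 0 in WT only, at -3.34 against 0.20 in CD94-KO.

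Il7r and Il18r1 were among the cytokine receptor genes higher in members. Il7r, the receptor for the survival cytokine IL-7, had 911 CPM in WT and 1012 CPM in CD94-KO members against 179 and 216 CPM in the other gated T cells, ratios of 5.09 [4.30 to 6.02] and 4.69 [4.00 to 5.52]. The IL-23 receptor gene Il23r had 70.5 and 49.8 CPM against 0 UMIs in both libraries (at least 35.8-fold and 15.8-fold). Il17re, which encodes an IL-17 receptor subunit, had 24.5 and 33.2 CPM against 0 UMIs in both. Il18r1, the receptor for IL-18, had 276 and 418 CPM against 92.5 and 140 CPM. Of 14 cytokine receptor genes at this depth, Il7r, Il18r1 and Ifngr2 were higher and the decoy receptor Il1r2 and the IL-12 receptor subunit Il12rb2 lower, with medians of 0.33 and -0.02.

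Several signalling genes next to CD3 were lower in members than in the other gated T cells. Lck, the Src-family kinase that starts signalling in most T cells, had 2 UMIs in WT and 5 in CD94-KO members (6.13 and 8.29 CPM) against 235 and 205 CPM in the other gated T cells. The coreceptor and adhesion genes Cd5, Cd28 and Cd2 were also low, with ratios of 0.0612, 0.0369 and 0.0675 in WT and 0.0633, 0.0277 and 0.0743 in CD94-KO. Themis had 0 UMIs in members of both libraries, against 56.4 and 61.8 CPM. Other parts of the cascade were not lower: Cd247, the CD3 zeta chain, had 236 and 279 CPM against 109 and 103 CPM, and Lat had 380 and 372 CPM against 226 and 211 CPM. Of 16 listed genes, Cd247 and Blk were higher and 7 lower (Lck, Cd5, Cd6, Cd2, Cd28, Themis and Fyb), with medians of -1.10 and -1.05.

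Part of a list of genes known from innate-like IL-17 γδ cells was higher in members. Of 22 listed genes, 10 were at least 2-fold higher in both libraries (Tmem176a, Tmem176b, Actn2, Ramp1, Ckb, Pxdc1, Avpi1, Igf1r, Emb and Dgat1) and Cd27 and Ly6c2 were lower, with medians of 0.93 in WT and 1.17 in CD94-KO. Actn2, which encodes the actin crosslinker α-actinin 2, had 448 and 413 CPM against 5.90 and 14.7 CPM (ratios 75.8 [38.9 to 169] and 28.15 [16.5 to 52.2]). The membrane channel genes Tmem176a and Tmem176b had 478 and 653 CPM in WT and 594 and 614 CPM in CD94-KO, with ratios between 13.8 and 38.4. Aqp3, a water and glycerol channel, had 70.5 and 144 CPM against 1.97 and 6.29 CPM. Cd27, whose absence marks IL-17 rather than interferon gamma producing γδ cells in mice, had 7 and 2 UMIs in members, 21.5 and 3.32 CPM, against 154 and 137 CPM.

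The other genes highest in members by the size of the ratio were a mixed group. Ikzf3, the lymphoid factor Aiolos, had 362 and 425 CPM against 54.4 and 73.4 CPM. Irs2, an adaptor of the insulin and IGF1 receptors, had 365 and 514 CPM against 61.7 and 55.5 CPM, and Igf1r itself 209 and 192 CPM against 14.4 and 9.43 CPM. F2r, a thrombin receptor, had 205 and 237 CPM against 29.5 and 38.8 CPM, Smox, the enzyme spermine oxidase, 337 and 300.2 CPM against 57.7 and 58.7 CPM, and Znrf1, a ubiquitin ligase, 221 and 232 CPM against 43.3 and 47.2 CPM. Prelid2 and Avpi1 had ratios of 5.96 and 7.62 in WT and 9.23 and 5.07 in CD94-KO. Some of this group were also found in gated macrophages, at levels no higher than in members. Bcl2a1a, a survival gene with near-identical copies that make its own count uncertain, had 202 and 292 CPM in members and 198 and 142 CPM in gated macrophages. Sepp1, the selenium carrier selenoprotein P, had 294 and 312 CPM against 94.5 and 128 CPM in macrophages. The chemokine gene Cxcl10 had 849 and 708 CPM against 516 and 496 CPM, with 88.4% and 82.7% of its UMIs in 10 members, and the part of free macrophage RNA was not tested.

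Some genes of residence in tissue and of migration were higher in members. Cd69, which keeps lymphocytes in tissue, had 865 and 864 CPM against 164 and 179 CPM, and Itgae, the CD103 integrin chain, 126 and 148 CPM against 24.9 and 43.0 CPM. Of 14 residency genes, 5 were higher (Itgae, Itgb7, Cd69, Rgs1 and Rgs2) and Itga4 and Cd9 lower, with medians of 0.77 and 0.66. Of 14 chemokine receptor and trafficking genes, Ccr2, Cxcr6, Cxcr4 and the leukotriene B4 receptor Ltb4r1 were higher, and Ccr7, a receptor that guides cells to lymph nodes, was lower, with medians of 0.39 and 0.08. Cxcr6, the receptor for CXCL16, had 889 and 803 CPM against 294 and 282 CPM, and Ccr2 518 and 635 CPM against 252 and 263 CPM. Ccr6, often used to mark IL-17 γδ cells, had only 6 and 8 UMIs in members.

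Ifng and most cytotoxic genes on the list were lower in members. Ifng had 2 UMIs in members of each library (6.13 and 3.32 CPM) against 218 and 320 CPM in the other gated T cells. Of 10 cytotoxic genes, 0 were higher and 8 lower, with medians of -1.65 and -2.16. The list summed to 3391 and 4498.5 CPM in members, against 6847 and 6215 CPM in CD8 T cells. It was also higher in CD4 conventional (5515 and 5339 CPM) and regulatory T cells (6970 and 5937 CPM), so the gap was not particular to CD8 T cells. Nkg7, a granule protein, had ratios of 0.0259 and 0.0112, and Gzmb, granzyme B, 144 and 269 CPM against 1216 and 1029 CPM. The chemokine gene Ccl5 had 64.4 and 53.1 CPM against 1616 and 2009 CPM. Of 11 costimulatory genes, 0 were higher and 6 lower, among them Tnfrsf4, which encodes OX40, at 9.20 and 9.95 CPM against 1020 and 702 CPM. The costimulatory list summed to 2207 and 2256 CPM in members, near the 2180.5 and 2113 CPM in CD8 T cells and below the 5014 to 8148 CPM in CD4 conventional and regulatory T cells. Icos was the exception among those named, at 653 and 763 CPM against 561 and 546 CPM. Pglyrp1 and Gimap7 completed the genes lowest by size, with 2 and 5 UMIs and 0 and 1 UMIs in members.

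Of the checkpoint genes at this depth some were lower in members and Pdcd1 was not. Pdcd1, which encodes PD-1, had 248 and 310 CPM against 342 and 244 CPM, in 63.6% of WT and 70.5% of CD94-KO members. Of 9 checkpoint genes, 0 were higher and 5 lower (Ctla4, Lag3, Havcr2, Pdcd1lg2 and Entpd1), with medians of -1.94 and -1.62. Ctla4 had 42.9 and 59.7 CPM against 442 and 447 CPM, and Lag3 had 3 and 1 UMIs.

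Cytokine genes other than Il17a and Il17f were led by lymphotoxin. Ltb had 1294 and 1364 CPM against 434 and 474 CPM, and Tnf 67.45 and 92.9 CPM against 23.6 and 20.96 CPM, with 128 and 138 CPM in gated macrophages. Csf2 had 5 and 12 UMIs. Of 11 listed genes, Tnf, Ltb and the protease gene Furin were higher and Ifng, Tnfsf11, Csf1 and Tnfsf8 lower in both libraries.

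**Figure D4:**
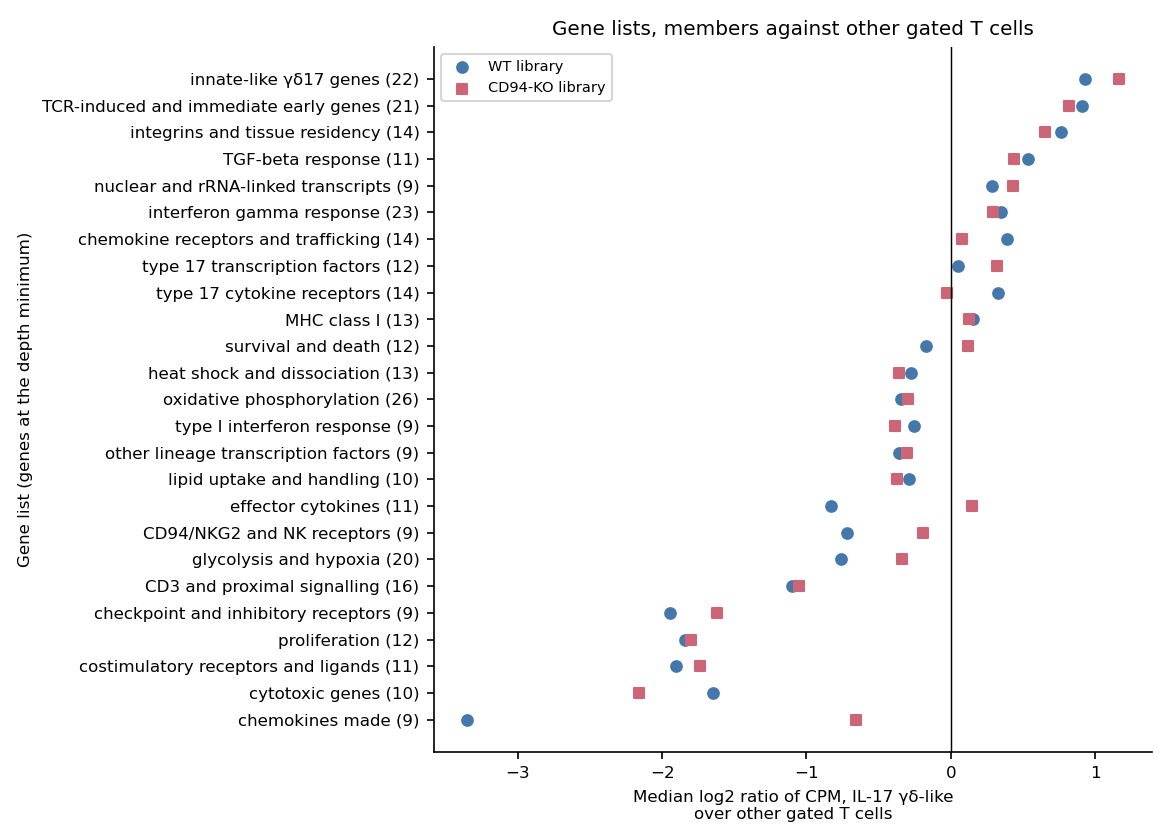
Median log2 ratio of CPM between members and other gated T cells for each gene list with at least 8 genes at the depth minimum (number in brackets), with circles for WT and squares for CD94-KO. The innate-like γδ17 list lies highest at 0.93 and 1.17, and the cytotoxic list low in both libraries at -1.65 and -2.16.

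Klrd1, the gene deleted in CD94-KO mice, was scarce in members of either genotype. It had 12 UMIs in WT and 5 UMIs in CD94-KO members (36.8 and 8.29 CPM), against 266 and 208 CPM in the other gated T cells. A UMI was found in 10.9% and 4.76% of members, below the 19.6% and 9.93% of gated macrophages, which are deeper, and after thinning to 1000 UMIs in 0% and 1.90% of members and 4.57% and 1.21% of macrophages. The thinned CD94-KO intervals overlapped, at 0.232% to 6.71% in members and 0.554% to 2.28% in macrophages, and the part of free RNA in these UMIs was not tested. Reads at the 3′ end would be counted if that end of the gene is intact in the knockout, and this cannot serve as a test of the label. The partner gene Klrc1, which encodes NKG2A, had 39.9 and 33.2 CPM against 160 and 218 CPM. Klrk1, which encodes NKG2D, was the exception, at 399 and 355 CPM against 110 and 157 CPM, in 78.2% and 69.5% of members. Among 9 NK receptor genes Klrk1 was higher and Klrd1, Klrc1, Klrc2 and Klre1 lower than in the other gated T cells of both libraries. Klrc1 and Klrc2 are close copies, and their split is uncertain.

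Members made up more of the gated T cells in the CD94-KO library, 105 of 225 (46.7% [40.01 to 53.4]), than in the WT library, 55 of 235 (23.4% [18.1 to 29.4]). There were 0.859 [0.588 to 1.25] members per CD8 T cell in WT and 2.28 [1.600 to 3.30] in CD94-KO, 0.948 and 2.23 per CD4 conventional T cell, and 0.948 and 3.89 per regulatory T cell. Among all cells that passed the limits the gap was smaller and the intervals overlapped, 1.71% [1.29 to 2.22] in WT and 2.37% [1.94 to 2.86] in CD94-KO. CD8 T cells were 1.99% and 1.04% of those cells, CD4 conventional T cells 1.81% and 1.06%, and regulatory T cells 1.81% and 0.609%. The macrophage limit removed 25 WT and 24 CD94-KO cells that met the rest of the rule, 31.2% and 18.6% of them. With that limit lifted for members and comparison cells the shares were 20.7% and 37.1%. All shares follow a CD45 sort, and more members cannot be told apart from fewer of the other cells.

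Between genotypes, Blk, Il1r1 and Zbtb16 did not differ beyond counting error in members. A ratio of at least 1.5 described 247 of 2536 genes higher in CD94-KO (9.74%) and 103 lower (4.06%), with at least 50 UMIs over members of both libraries, and the median log2 ratio was 0.06. Blk had a ratio of 1.13 [0.855 to 1.51], Il1r1 1.32 [0.918 to 1.91], Zbtb16 1.18 [0.800 to 1.76], Il7r 1.11 [0.966 to 1.28], Cxcr6 0.903 [0.779 to 1.05] and Icos 1.17 [0.991 to 1.38], all with intervals that include 1. Maf had a ratio of 1.32 [1.07 to 1.66]. Sox13 had 1.57 [0.773 to 3.46], Il23r 0.706 [0.396 to 1.27], Klrk1 0.891 [0.713 to 1.12], Tnf 1.38 [0.827 to 2.37] and Pdcd1 1.25 [0.957 to 1.64], where the other gated T cells had 0.715 [0.610 to 0.836] for Pdcd1. Of 24 innate-like genes Aqp3 and Tnfrsf25 were higher and Ly6c2 lower, with a median of 0.09.

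Areg, which encodes the EGF receptor ligand amphiregulin, differed most among genes named by size. It had 11 UMIs in 12.7% of WT members and 166 UMIs in 30.5% of CD94-KO members, 33.7 and 275 CPM, a ratio of 8.16 [4.45 to 16.7]. The CD94-KO level rested on few cells, since 10 cells held 80.7% of its UMIs and the highest held 47. The other gated T cells went the other way, with 341 CPM in WT and 239 CPM in CD94-KO (ratio 0.701 [0.597 to 0.820]), mostly from CD4 conventional and regulatory T cells. CD8 T cells had 6.02 and 8.23 CPM.

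The other genes higher by size in CD94-KO members were a mixed group. Hilpda, a lipid droplet protein induced by hypoxia, had 187 and 378 CPM (ratio 2.02 [1.52 to 2.73]) and the other gated T cells a ratio of 0.886 [0.734 to 1.07]. Icam1, the adhesion ligand of LFA-1, had 95.04 and 201 CPM (2.11 [1.41 to 3.24]), and Aqp3 a ratio of 2.05 [1.28 to 3.40]. Nr4a1, the orphan receptor induced by antigen receptor signals, had 126 and 250.5 CPM (1.99 [1.403 to 2.89]) against a ratio of 1.01 in the other gated T cells. Plec, the cytolinker plectin, had 2.92 [1.80 to 4.97], with 1.42 [1.11 to 1.81] in the other gated T cells. Mxd1, a repressor in the MYC network, had 2.29, the protease inhibitor Cstb 1.99, the FK506-binding protein gene Fkbp1a 1.95, the zinc finger gene Zbtb1 1.91 and the ubiquitin ligase Rnf19b 1.87. Mt1, a metallothionein, had 2.63 [1.63 to 4.43], but 76 of its 102 CD94-KO UMIs lay in the deepest CD94-KO member, and without the deepest member of each library its log2 ratio was -0.57. The macrophage and monocyte markers Cd14 and Arg1 were higher in CD94-KO members too. Cd14 had 38 and 144 UMIs (ratio 2.05 [1.425 to 3.01]) and Arg1 had 42 and 177 UMIs (2.28 [1.62 to 3.27]), with 85.4% and 82.5% of their CD94-KO UMIs in 10 members. The part of macrophage RNA in these differences was not tested.

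Genes lower by size in CD94-KO members included immediate early genes. Jun, a subunit of the AP-1 factor, had 1404 CPM in WT and 869 CPM in CD94-KO members (ratio 0.619 [0.545 to 0.703]), and Atf3, another stress-induced factor, 328 and 184 CPM (0.561 [0.426 to 0.739]). In both libraries members were above the other gated T cells, which had 333 and 290.3 CPM of Jun and 88.5 and 63.9 CPM of Atf3. Of 21 immediate early genes, the nuclear receptors Nr4a1, Nr4a2 and Nr4a3 were higher and Egr1, Jun, Dusp1 and Dusp2 lower, with a median of -0.03. Against the other gated T cells Fos, Jun, Ier2 and Cd69 were higher in both libraries and 0 lower, with medians of 0.91 and 0.82. Such genes also respond to tissue dissociation, whose part was not tested. Of 12 dissociation genes Hspa1a and Cacybp were higher and Dnajb1 lower in CD94-KO members, and of 13 set against the other gated T cells 0 were higher and 0 lower in both libraries.

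Serpina3g, an intracellular protease inhibitor, had 190 and 91.2 CPM (ratio 0.480 [0.328 to 0.701]) while the other gated T cells had a ratio of 1.26. Dnajb11, a chaperone of the endoplasmic reticulum, had 0.525 [0.366 to 0.751] and Socs1, an inhibitor of cytokine signalling, 0.621 [0.434 to 0.890]. Fryl, Ms4a4b, Tonsl, Pet100 and Arhgdia had ratios between 0.580 and 0.625. Irf8 and Grn were lower by size as well, at 0.561 and 0.596, but 56 of 82 Irf8 UMIs and 33 of 49 Grn UMIs in WT lay in the deepest WT member. That cell also held 25 of the 26 WT UMIs of Siglech, a plasmacytoid dendritic cell gene, and was among the 4% of cells with the highest doublet scores. Without the deepest member of each library the log2 ratios were 0.74 for Irf8 and 0.57 for Grn.

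**Figure D5:**
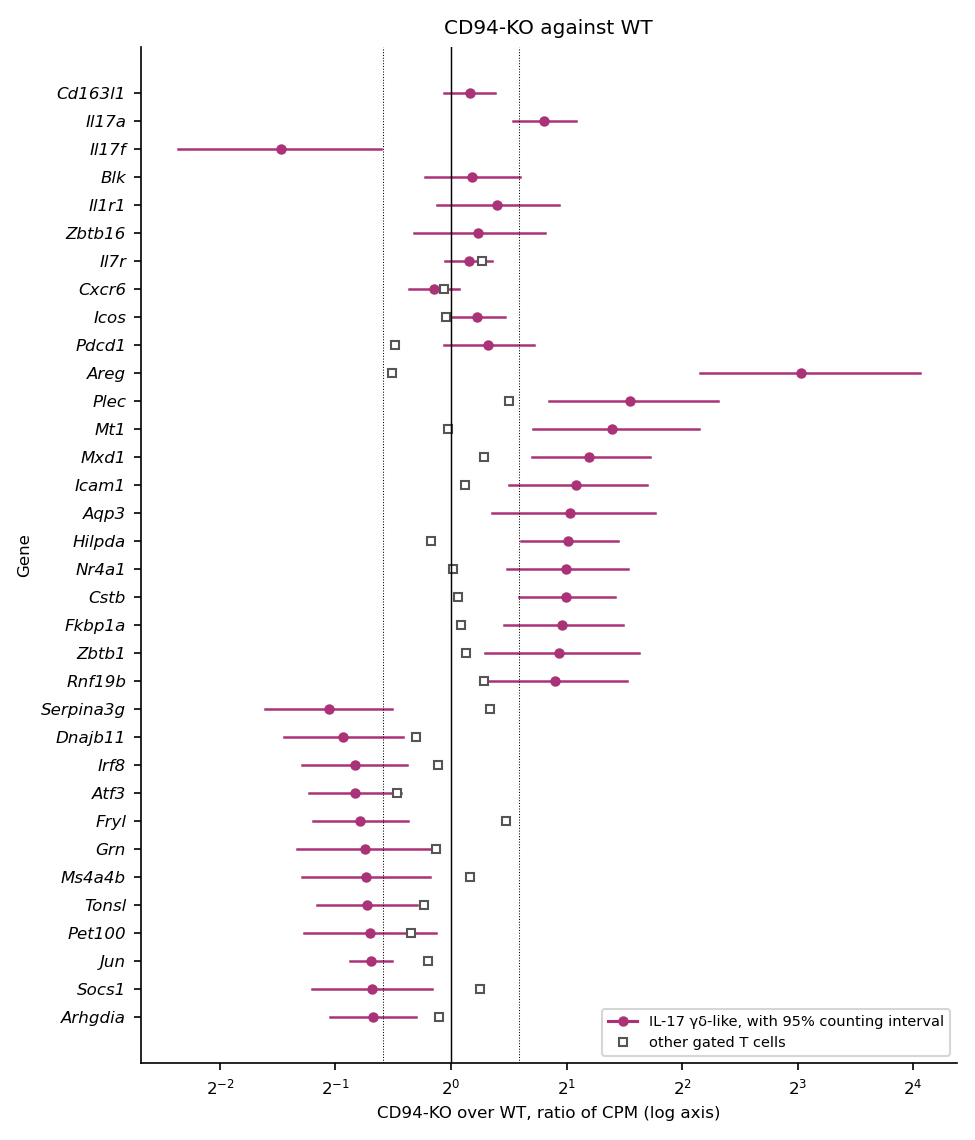
Ratio of CPM between CD94-KO and WT on a log axis, with filled points for members and lines for their 95% counting interval, and open squares for the other gated T cells where they hold at least 20 UMIs of the gene. The first 10 genes describe the cell type and the rest were named by size, with Areg at 8.16 in members and 0.701 in the other gated T cells.

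The other gene lists were counted in the same way between genotypes, where 9.74% of all genes tested were higher in CD94-KO and 4.06% lower. Of 22 interferon gamma response genes Gbp2, Cxcl9 and Cd274 were higher and Irf8 and Socs1 lower, with a median of -0.08. Of 16 glycolysis and hypoxia genes Slc2a1, Vegfa and Ddit4 were higher and 0 lower, with a median of -0.01. Of 26 oxidative phosphorylation genes 0 were higher and Sdhd was lower. The median was further from 0 for some short lists. It was 0.72 over 4 ILC2 markers (Areg and Arg1 higher) and 0.48 over 3 checkpoint genes (Cd274 higher). Of 6 effector cytokine genes Areg and Vegfa were higher, with a median of 0.32, and of 5 chemokine genes Ccl9 was higher, with a median of -0.26. Of 12 residency genes Itgav, Itgb1 and Prdm1 were higher, with a median of 0.24, and 7 survival and death genes had a median of 0.27 with 0 higher and 0 lower. Of 6 cytotoxic genes Gzmb was higher (144 and 269 CPM) and Gzma lower, with a median of -0.10. Id2, the inhibitor of DNA binding that innate lymphocytes need, had 414 and 735 CPM (1.78 [1.46 to 2.17]). The 5 proliferation genes at this depth gave 0 higher and 0 lower.

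Cell-cycle transcripts differed gene by gene. A UMI of Mki67 or Top2a was found in 38.2% [25.4 to 52.3] of WT and 17.1% [10.5 to 25.7] of CD94-KO members, and in 12.7% [5.27 to 24.5] and 2.86% [0.593 to 8.12] after thinning to 1000 UMIs. The gap came from Top2a, a topoisomerase of dividing cells, with 23 UMIs in 32.7% of WT and 13 UMIs in 10.5% of CD94-KO members. The cycling marker Mki67 had 4 and 9 UMIs, in 5.45% and 6.67% of members. Gated macrophages had an Mki67 UMI in 14.8% and 8.19% and a Top2a UMI in 9.41% and 10.2% of cells. After thinning to 1000 UMIs an Mki67 UMI was found in 0% of WT and 1.90% [0.232 to 6.71] of CD94-KO members and in 2.15% and 1.34% of macrophages. Macrophage levels of Top2a were also higher in WT, at 37.3 against 11.5 CPM, and the part of free RNA was not tested.

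Markers of myeloid cells were present in members at sums below those of gated macrophages. The 15 macrophage and monocyte markers, 4 of them limited by the rule, summed to 1211 CPM in WT and 1466 CPM in CD94-KO members, against 761 to 2123 CPM in the other gated T cell types and 19169 and 20176 CPM in gated macrophages. Of these, Adgre1 and Ms4a7 were at 0 in WT members and 0 markers were at 0 in CD94-KO members. The 13 dendritic cell markers summed to 2232 and 1750.0 CPM. They had 1153 and 961 CPM in CD8, 4043 and 2294 CPM in CD4 conventional and 5900 and 6801 CPM in regulatory T cells. Gated macrophages had 20257 and 23816 CPM. The WT sum of members includes Siglech, with 25 of its 26 UMIs in the deepest member. The 8 neutrophil markers summed to 343 and 347 CPM against 5443 and 4682 CPM in gated macrophages, with Cxcr2, G0s2, Retnlg and Mmp9 at 0 in members of both libraries.

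Not every member held a cytokine transcript. A UMI of Il17a or Il17f was found in 31 of 55 WT and 68 of 105 CD94-KO members, and the others entered through Cd163l1 or 5830411N06Rik. This split uses gate genes and is given as a description. Of 876 genes with at least 50 UMIs over members of each library, 0 were at least 2-fold higher with a cytokine UMI in both libraries (0% of genes) and 2 at least 2-fold lower (0.228%), Tyrobp and Tgfbi. The genes named here and in the next paragraph were picked after their values were seen.

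The larger ratios on the higher side included Bcl11b, Irs2, Lsm4, Ltb4r1, Rgcc and Sep15, each between 1.51 and 2.56 in both libraries. Counting intervals included 1 for Lsm4 in both libraries (0.8938 to 2.71 and 0.9865 to 2.39). They also included 1 in WT for Bcl11b, Ltb4r1 and Rgcc. Manf, a stress protein of the endoplasmic reticulum, had 486 CPM with and 318 CPM without a cytokine UMI in WT and 325 and 187.5 CPM in CD94-KO. The disulphide isomerase Pdia6 had 308 and 203 CPM in WT (interval of the ratio 0.956 to 2.43) and 291.5 and 192 CPM in CD94-KO. Dnajb11 had ratios of 1.53 [0.907 to 2.62] and 2.74 [1.42 to 5.82], and Jun 1.79 [1.47 to 2.18] and 1.46 [1.203 to 1.78]. Other chaperone genes were mixed. Hspa5 had ratios of 1.33 [1.09 to 1.64] in WT and 1.39 [1.18 to 1.64] in CD94-KO. Hspa8, Hspa1a and Hspa1b were below 1 in CD94-KO, at 0.760, 0.105 and 0.124. The lower side included Tyrobp and Il1b. Tyrobp, an adaptor of myeloid and NK cells, had 77.0 CPM with and 400.5 CPM without in WT and 114.5 and 315.5 CPM in CD94-KO, against 1883 and 2044 CPM in gated macrophages. Il1b had 237 and 439 CPM in WT and 206 and 517 CPM in CD94-KO, against 5282 and 4509 CPM in gated macrophages. Some other myeloid genes were lower in both libraries, such as Ctss (ratios 0.546 in WT and 0.534 in CD94-KO) and Fcer1g (0.399 and 0.336). Others were not: Lyz2 had a ratio of 1.18 in WT and 0.260 in CD94-KO, and Grn 0.155 and 1.14. The deepest member of each library lay among those without a cytokine UMI. In WT that cell held 33 of the 49 Grn UMIs and 25 of the 26 Siglech UMIs of members, and it had a high doublet score. The ratios in this paragraph are not given without these cells, so single cells may weigh on them. Median depths were close, 5878 and 6027.5 UMIs in WT and 5543.5 and 5244 UMIs in CD94-KO, and the part of macrophage RNA was not tested.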

How the data were processed

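The data were 3′ droplet RNA libraries (1 WT, 1 CD94-KO). The authors deposited raw UMI counts per gene and barcode, with 27998 genes, after removing barcodes not associated with cells, per the labels' protocols. Per the file headers, the matrices come from Cell Ranger 5.0.0. The submitters' processing notes list mm10 and Seurat 4.0 without saying what for. The gene annotation release is not given in the sources used here. T cell receptor genes were not analysed here. Members and gene lists were chosen with earlier results of these data known.

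UMIs were summed per library and gated cell type and scaled to CPM (Python 3.11.15, numpy 2.4.6). Ratios have exact conditional binomial intervals and shares Clopper-Pearson intervals, at 95% (scipy 1.17.1). The calculation was tested on simulated counts. With 1 library per genotype nothing was tested. Where a group of cells of a library had no UMI of a gene, ratios and list medians used 3 counts in its place. Gated macrophages had at least 5 C1q UMIs and no CD3 UMI. Scrublet (scanpy 1.11.5) marked 2 WT cells (0.0623%) and 0 CD94-KO cells, so it had not worked. Its top 4% of scores were removed as an alternative, and the gates were otherwise the only limit on doublets. TMM scaling (edgeR 4.0.16) was another alternative.

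Genes were named by rule. A fixed set of markers, receptors, factors and cytokines was always named. By size, the 12 genes furthest apart in each direction between genotypes and the 15 higher and 10 lower against other gated T cells were named. They needed 100 UMIs, 50 CPM, a UMI in 20% of cells on the higher side and 0.25 of the macrophage level. Mitochondrial, ribosomal, immunoglobulin, haemoglobin, Y-linked, unnamed and gate genes were left out. Genes named outside this rule (such as Rora, Lat, Igf1r and Id2) come from the gene lists and were picked with their values known. Gene positions are from GENCODE M21 (GRCm38) and promoters from RefSeq. Some genes that the naming rule or the lists hold are not reported here.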

Additional observations from a re-analysis of the deposited data

Results flagged for a closer look

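Signal of the gate genes also appeared in cells left out of every comparison. With at least 2 gate UMIs, a CD3 UMI and no Foxp3, 25 WT cells and 24 CD94-KO cells exceeded the limit of 1 UMI of C1qa, C1qb, C1qc and Csf1r. They had a median of 5 UMIs of these macrophage genes in both libraries, and medians of 14403 and 9769.5 UMIs in all, against 5939 and 5458 UMIs in members.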

How the results depend on the processing

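No paired analysis was possible because there was 1 library per genotype, which also left no replicate to leave out. Depth limits the single-gene values: members had 326174 and 602866 UMIs in all. The share of members among gated T cells was 15.97% in WT and 41.8% in CD94-KO after thinning to 1000 UMIs before the gates. As a share of all cells passing the limits it was 1.71% and 2.37%. Chosen after seeing the data, it was 10.4% and 22.5% of all CD3-positive cells within the macrophage limit, and 37.1% in CD94-KO (20.7% in WT) with that limit lifted. The order of the libraries was the same in each. At a 1.5-fold difference between genotypes, 21 genes were higher and 8 lower of 634 with at least 200 UMIs per gene. With members thinned to 1000 UMIs it was 32 and 15 of 458. The main count was 247 and 103 of 2536. At a 2-fold difference from the other gated T cells in both libraries, 45 genes were higher and 56 lower of 1053 with at least 200 UMIs. Against all other CD3-positive cells it was 238 and 572 of 6649, and against CD8 T cells alone 198 and 102 of 2396. The main count was 134 and 178 of 3765. Among single genes the log2 ratio between genotypes reversed for Irf8 (0.75) and Grn (0.82) without the highest Scrublet scores, and for Irf8 (0.74), Grn (0.57) and Mt1 (-0.57) without the deepest members. Mt1 also reversed with the macrophage genes at 0 (-0.39) and after thinning (-0.71), as did Sox13 after thinning (-0.35). Areg in WT members was higher than in CD8 T cells alone (log2 ratio 2.49). The cause was not tested for these. Of 590 single-gene values between genotypes under the alternatives, 549 moved by less than their counting interval, 33 by more and 8 reversed. Of 812 against the other T cells, 674, 137 and 1 did.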

Other observations

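Gene groups not yet described were counted by genes 2-fold apart from the other gated T cells in both libraries. Over all genes tested, 3.56% were higher and 4.73% lower. Of 26 oxidative phosphorylation genes 0 were higher and 0 lower in both libraries, with medians of -0.34 in WT and -0.30 in CD94-KO, and of 13 MHC class I genes 0 were higher and 0 lower, with medians of 0.15 and 0.12. Of 20 glycolysis and hypoxia genes only Tpi1 was lower, with medians of -0.76 and -0.34. Of 12 proliferation genes 7 were lower (Mki67, Mcm3, Mcm5, Mcm6, Stmn1, Tubb5 and 2810417H13Rik), with medians of -1.84 and -1.80. Of 9 type I interferon response genes Ifi27l2a, Ifitm3 and Slfn1 were lower, with medians of -0.26 and -0.39. Of 11 TGF-beta response genes Ski and Itgae were higher and Bcl2l11 lower, and of 10 lipid handling genes Dgat1 was higher and Fabp5 and Hmgcs1 lower. The 9 chemokine genes had medians of -3.36 in WT and -0.66 in CD94-KO, with Cxcl10 higher and Ccl1, Ccl4, Ccl5 and Xcl1 lower in both.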
